A study of Homo sapiens with 4 samples.

Results

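The small nucleolar RNA host genes examined here were the long noncoding RNA (lncRNA) genes of GENCODE 44 on hg38 whose symbol is SNHG followed by a number, together with GAS5, ZFAS1, DANCR, and EPB41L4A-AS1. The definition gave 32 genes of the 38899 protein-coding and lncRNA genes in the annotation, spread over 15 chromosomes. They were followed through 4 CUT&RUN peak lists from HSSY II cells, an established human synovial sarcoma line that carries the fusion oncoprotein SS18-SSX. Cells had received DMSO, the vehicle, or 2.5 µM MS67, a degrader that recruits the VHL ubiquitin ligase to WDR5, for 4 days, and in each arm chromatin was released with an antibody to WDR5 or to SS18-SSX. Each antibody and treatment had 1 library, so no difference below has a replicate check and no test was run. All 4 libraries came from a single cell line, and mouse NIH-3T3 cells had been added to each as a spike-in. The lists hold no expression values, so the identity of the cells could not be checked against marker genes.

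A small nucleolar RNA (snoRNA) is cut out of an intron of its host transcript and guides the chemical modification of other RNAs. Box C/D snoRNAs (SNORD genes) guide methylation of ribose in ribosomal RNA, box H/ACA snoRNAs (SNORA genes) guide pseudouridylation, and scaRNAs (SCARNA genes) act on spliceosomal RNAs in Cajal bodies. In the genes followed here the spliced host RNA is classed as noncoding, and for many hosts it is removed by nonsense-mediated decay while the snoRNA is kept. Many host genes start transcription at a C followed by pyrimidines, as ribosomal protein genes do. WDR5 is a scaffold of the MLL/SET histone methyltransferase complexes and is known to bind promoters of ribosomal protein genes, and SS18-SSX is an altered subunit of the BAF chromatin remodelling complex.

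The label held up against the annotation. GENCODE 44 placed at least 1 snoRNA or scaRNA on the same strand within 31 of the 32 genes. RefSeq placed at least 1 within 31, by position only, as strand was not compared there. Each of the 32 held one in at least one of the annotations. GAS5 had none in GENCODE 44 and 11 in RefSeq, among them SNORD44 and SNORD47, and SNHG27 had only the GENCODE copy of SNORA70. SNHG14, the 441754-bp host in the imprinted region of chromosome 15, held 83 snoRNAs in RefSeq, all of box C/D. By the RefSeq symbols, again without regard to strand, 12 hosts held only SNORD genes, 11 only SNORA genes, 4 only SCARNA genes (SNHG10, SNHG20, SNHG21, and SNHG22), and 3 a mixture (SNHG12, SNHG25, and GAS5). SNHG27, with none in RefSeq, and SNHG28, whose only RefSeq entry had another kind of symbol, fell in no class. The 32 genes had a median of 9.5 annotated start sites (2 to 111), against a median of 1 for the other lncRNA genes and 5 for protein-coding genes. Because a gene with more start sites has more promoter sequence in which a peak can fall, shares for lncRNA genes with 5 or more start sites are given below. That limit does not match the number of start sites between groups. Shares for the canonical start site alone are also given.

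For 19 of the 32 genes another protein-coding or lncRNA gene started within 1 kb, and for 14 of these it was a protein-coding gene, as for GAS5 with ZBTB37, SNHG1 with SLC3A2, SNHG3 with RCC1, SNHG4 with MATR3, SNHG9 with RPS2, SNHG18 with SEMA5A, SNHG31 with BARD1, and ZFAS1 with ZNFX1. A peak at such a start cannot be assigned to one gene of the pair.

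The sequences under 3 of the WDR5 peaks are shown because these promoters, together with those of SNHG6 and SNHG18, had the most fragments at the summit in DMSO-treated cells. They are hg38 sequence on the strand of the host gene, 5′ to 3′, and capitals mark matches to the motifs that were searched on both strands (the E-box CACGTG, the NFY box CCAAT, the SP/KLF core GGGCGG, the ETS core CCGGAAG, the YY1 core GCCATCTT, and the TATA box TATAAA, none of which is contained in another). The SNHG11 stretch is the 300 bases around the summit at chr20:38447377-38447676 on the plus strand, with the summit at base 151 in an exon of SNHG11. The SNHG26 stretch is the whole peak at chr7:22854260-22854536 on the plus strand, with the summit at base 115 in an intron of SNHG26. The GAS5 stretch is the whole peak at chr1:173868673-173868917 on the minus strand, with the summit at base 144 in an exon of GAS5 and an intron of ZBTB37, which runs the other way.

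SNHG11: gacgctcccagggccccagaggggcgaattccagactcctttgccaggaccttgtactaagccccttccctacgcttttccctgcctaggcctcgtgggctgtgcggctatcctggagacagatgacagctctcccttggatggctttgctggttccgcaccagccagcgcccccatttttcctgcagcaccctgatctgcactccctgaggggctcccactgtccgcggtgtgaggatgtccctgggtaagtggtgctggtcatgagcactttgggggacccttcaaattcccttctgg

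SNHG26: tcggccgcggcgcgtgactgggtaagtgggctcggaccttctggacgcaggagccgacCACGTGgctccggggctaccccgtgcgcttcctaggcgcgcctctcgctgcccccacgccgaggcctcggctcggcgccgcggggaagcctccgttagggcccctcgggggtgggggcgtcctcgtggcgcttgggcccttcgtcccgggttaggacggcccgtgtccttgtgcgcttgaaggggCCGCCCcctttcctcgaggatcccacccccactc

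GAS5: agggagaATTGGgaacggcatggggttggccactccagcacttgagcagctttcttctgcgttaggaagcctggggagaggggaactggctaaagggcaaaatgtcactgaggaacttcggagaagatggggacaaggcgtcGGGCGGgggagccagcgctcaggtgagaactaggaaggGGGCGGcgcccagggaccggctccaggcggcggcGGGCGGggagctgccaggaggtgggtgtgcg

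The GAS5 peak held GGGCGG 3 times and CCAAT once on the opposite strand. The SNHG26 peak held the E-box CACGTG once and GGGCGG once on the opposite strand, and the SNHG11 stretch held none of the 6 motifs. The G and C content of the printed stretches was 60.7% for SNHG11, 73.6% for SNHG26, and 64.9% for GAS5, and over the 19 WDR5 promoter peaks of the host genes in DMSO it ran from 54.5% to 74.6% with a median of 63.4%.

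When every listed peak was counted, WDR5 peaks were found at the promoters of most of these genes in DMSO-treated cells. A promoter was the stretch from 1000 bp upstream to 100 bp downstream of any annotated start site, and a peak was counted when its centre lay in it. By this rule 19 of the 32 host genes (59.4%) had a WDR5 peak: SNHG1, SNHG4, SNHG5, SNHG6, SNHG7, SNHG11, SNHG12, SNHG15, SNHG17, SNHG18, SNHG21, SNHG22, SNHG26, SNHG29, SNHG30, SNHG31, EPB41L4A-AS1, GAS5, and ZFAS1. The background was 13.2% of the other 18834 lncRNA genes and 43% of the 20033 protein-coding genes. In another 6 genes (SNHG8, SNHG16, SNHG19, SNHG25, SNHG28, and SNHG32) a WDR5 peak lay within 2 kb of a start site but outside the promoter, and 7 genes (SNHG3, SNHG9, SNHG10, SNHG14, SNHG20, SNHG27, and DANCR) had none within 2 kb.

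In MS67-treated cells 12 of the 32 genes (37.5%) had a WDR5 promoter peak, against 7.86% of the other lncRNA genes and 27.7% of the protein-coding genes. All 12 also had one in DMSO. SNHG10 and SNHG18 had an MS67 peak within 2 kb only.

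SS18-SSX peaks were fewer. In DMSO they lay at the promoters of SNHG8, SNHG18, SNHG21, and SNHG22 (4 of 32, 12.5%), beside 4.77% of the other lncRNA genes and 13.4% of the protein-coding genes, and SNHG6 had one within 2 kb. The host genes' share was therefore near that of protein-coding genes. In the MS67 list none of the 32 genes had an SS18-SSX peak at the promoter or within 2 kb. That list held a promoter peak for only 0.313% of the other lncRNA genes and 0.724% of the protein-coding genes, and at such shares a set of 32 genes would hold less than 1 on average, so the absence says nothing about the host genes.

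**Figure D1:**
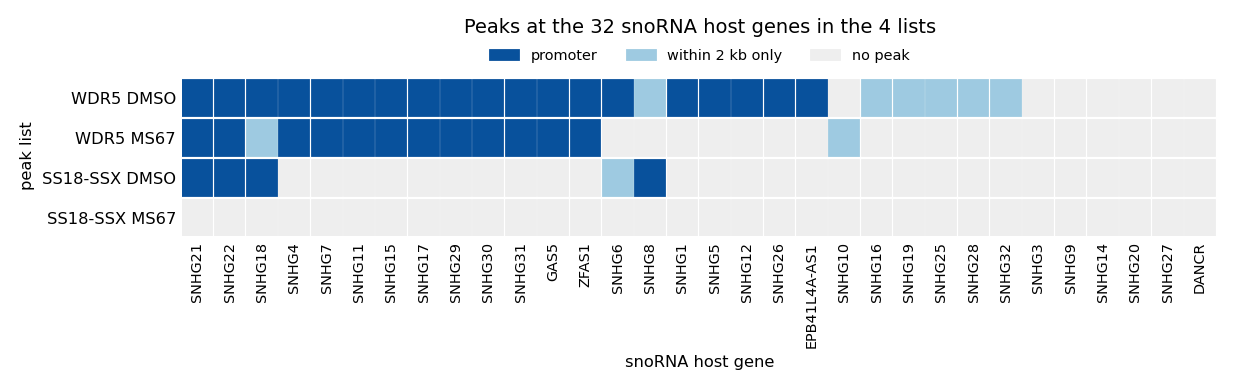
Peaks at each of the 32 snoRNA host genes (columns) in the 4 peak lists (rows). Dark blue marks a peak centred in the promoter, light blue a peak centred within 2 kb of a start site only, and grey no peak. WDR5 promoter peaks cover 19 genes in DMSO and 12 in MS67, SS18-SSX promoter peaks cover 4 genes in DMSO, and the SS18-SSX MS67 row is empty.

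With all start sites counted, the gap to other lncRNA genes was narrower against those with many start sites or a coding neighbour, and wider among genes with no neighbour. Among the other lncRNA genes with 5 or more start sites, 29.3% of 2173 had a WDR5 promoter peak in DMSO, and among host genes with 5 or more start sites 17 of 26 did (65.4%). Of the other lncRNA genes that start within 1 kb of a protein-coding gene, 35.1% of 4226 had one, beside 8 of the 14 host genes of that kind (57.1%). Where no other gene started within 1 kb, 9 of 13 host genes had a peak (69.2%), against 5.62% of 13245 other lncRNA genes. On the canonical start site alone, 4 of these 13 host genes did (30.8%), against 4.67% of those lncRNA genes. With the canonical transcript's start site alone, the shares were 13 of 32 host genes (40.6%), 10.9% of the other lncRNA genes, and 31.2% of the protein-coding genes. By that rule SNHG11, SNHG12, SNHG17, SNHG26, EPB41L4A-AS1, and ZFAS1 no longer had a WDR5 promoter peak in DMSO. These groups were not matched for the number of start sites. Nor were they matched for the level of transcription, which the lists do not give, and its part in the difference was not tested.

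Protein-coding genes that carry a snoRNA or scaRNA in the same way had a WDR5 promoter peak in DMSO in 134 of 275 cases (48.7%) and in MS67 in 97 (35.3%). For the 81 cytosolic ribosomal protein genes the counts were 28 (34.6%) and 27 (33.3%). With the canonical start site alone, the DMSO shares were 40.6% of the lncRNA hosts, 35.3% of the protein-coding hosts, and 29.6% of the ribosomal protein genes. In MS67 they were 25%, 24%, and 25.9%, so the lncRNA hosts did not stand out there.

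**Figure D2:**
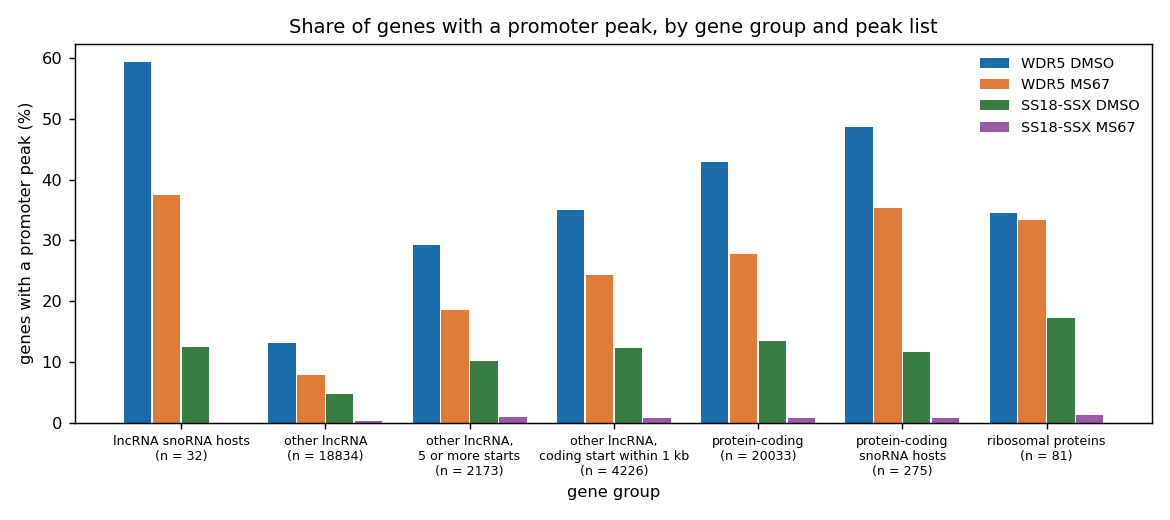
Percentage of genes (vertical axis, from 0) with a promoter peak in each of the 4 lists (bar colours) for the lncRNA snoRNA host genes and 6 comparison groups, with the number of genes under each. The host genes reach 59.4% for WDR5 in DMSO, above every comparison group shown. Their 37.5% in MS67 is close to the 35.3% of protein-coding snoRNA hosts and the 33.3% of ribosomal protein genes. Their SS18-SSX share of 12.5% in DMSO lies among those of the other groups. There are no replicates and so no error bars.

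The strength of the peaks was that of ordinary peaks in these lists. The number of fragments that overlap at a summit and the local background were recovered from each peak's fold enrichment and p-value. In DMSO the 19 WDR5 promoter peaks, 1 for each gene, had 7 to 24 summit fragments with a median of 14, beside a median of 13 over the whole WDR5 list. Their fold enrichment over local background ran from 3.20 to 8.17 (median 4.88, list 4.61) and their −log10 q from 1.84 to 11.0 (median 4.73, list 4.37). These were therefore peaks of middling rank, and at this depth an exact 95% Poisson interval on a summit of 14 fragments runs from 7.65 to 23.5.

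The order of the DMSO values was led by SNHG6, host of SNORD87, with 24 summit fragments (95% interval 15.4 to 35.7). SNHG11 followed with 18, GAS5 and SNHG26 with 17 each, and SNHG18 with 15. SNHG1, SNHG17, SNHG22, SNHG29, and ZFAS1 had 14 each, SNHG4 and SNHG12 had 13, SNHG21 had 12, and SNHG7 and SNHG31 had 11. At the low end SNHG15 had 10, SNHG5 had 9, EPB41L4A-AS1 had 8, and SNHG30 had 7. Neighbours in this order did not differ beyond counting error. The interval of SNHG30 ended at 14.4 and that of SNHG6 began at 15.4, but these genes were picked as the lowest and highest values. The intervals make no allowance for that choice, so no difference between genes is drawn from them.

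Of the 19 summits, 11 lay upstream of the host gene's first annotated base, 5 in an exon, and 3 in an intron of the host gene. The median peak centre was 205 bp upstream of the nearest start site (from 898 bp upstream to 132 bp downstream), and 8 centres were within 100 bp of it. The peak 132 bp downstream, at EPB41L4A-AS1, was counted because it lay in the promoter of another start site of that gene. Of the 11 upstream summits, 6 lay inside another gene, and in SNHG1 and SNHG18 that place was an annotated UTR, of SLC3A2 and SEMA5A respectively.

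**Figure D3:**
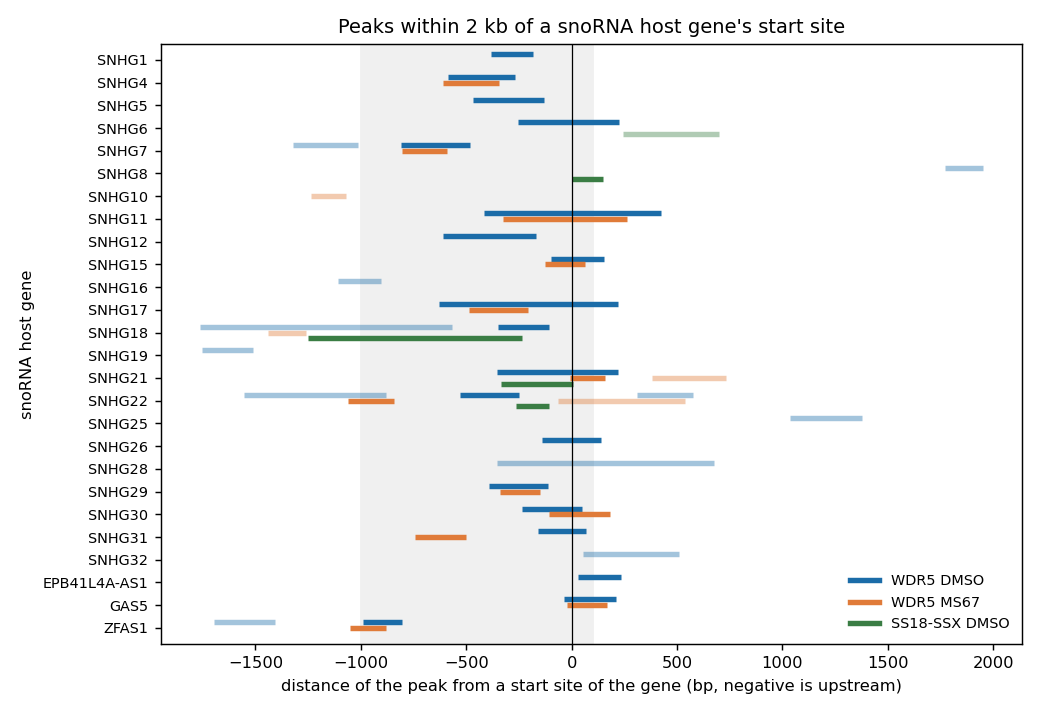
Position and width of every peak centred within 2 kb of a start site of a host gene, in bp from that start site with upstream to the left, for WDR5 in DMSO (blue), WDR5 in MS67 (orange), and SS18-SSX in DMSO (green). The grey band is the promoter of the nearest start site, and paler bars are peaks centred outside every promoter of the gene. Blue and orange bars overlap in most genes that have both.

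The genes with a WDR5 promoter peak in both lists are described next, by the class of RNA they carry. Box H/ACA hosts were the largest group, with 6 of the 11 having both peaks. SNHG11, host of SNORA60 and SNORA71E, had the highest −log10 q of all 19 (11.0), with a fold of 8.17 and 18 fragments in a peak of 839 bp at chr20:38446898-38447736, centred 3 bp from a start site. SNHG11 has 33 annotated start sites, and its canonical one, at base 38446343, lies outside this peak. In MS67 its peak at chr20:38446561-38447150 was 590 bp wide, with 7 fragments, a fold of 5.59, and a −log10 q of 3.89, centred 31 bp upstream of a start site. Its fragments were thus fewer in MS67, as at all 12 genes, and the libraries' depth also differed, as described further on.

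SNHG17, the host of 5 SNORA71 snoRNAs in GENCODE and near SNHG11 on chromosome 20, had a DMSO peak of 848 bp at chr20:38433781-38434628 with 14 fragments, a fold of 6.68, and a −log10 q of 7.50, 205 bp upstream of a start site. Its MS67 peak, at chr20:38434209-38434487 (279 bp), had 8 fragments, a fold of 6.26, and a −log10 q of 4.83, and was centred 348 bp upstream. SNHG17 was the only host gene to exceed a fold of 6 in both WDR5 lists.

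SNHG4, which shares its start region with MATR3, had 13 fragments in DMSO (chr5:139273515-139273832, 318 bp, fold 3.95, −log10 q 3.42, 428 bp upstream) and 8 in MS67 (chr5:139273494-139273756, 263 bp, fold 4.55, −log10 q 2.67, 477 bp upstream). SNHG7, host of SNORA17A and SNORA17B, had 11 fragments in DMSO (chr9:136728665-136728992, 328 bp, fold 5.07, −log10 q 4.49, 645 bp upstream) and 7 in MS67 (chr9:136728776-136728986, 211 bp, fold 4.58, −log10 q 2.59, 697 bp upstream). In both genes the treated and untreated peaks overlapped, well upstream of the start site.

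SNHG15, host of SNORA9, had the lowest DMSO −log10 q among the 19 genes (1.84), with 10 fragments and a fold of 3.20 in a peak of 253 bp at chr7:44986806-44987058, 29 bp downstream of a start site. Its MS67 peak, at chr7:44986770-44986957 (188 bp), had 9 fragments and the higher fold (5.33) and −log10 q (3.73), 30 bp upstream of a start site. SNHG31 had a DMSO peak at chr2:214810021-214810247 (227 bp) with 11 fragments, a fold of 4.11, and a −log10 q of 3.22, 47 bp upstream of a start site. Its MS67 peak at chr2:214809439-214809680 (242 bp), with 10 fragments, a fold of 5.59, and a −log10 q of 4.22, did not overlap the DMSO peak, lying 621 bp upstream in an exon of BARD1, a partner of BRCA1. At both genes the MS67 peak had the higher −log10 q although it had fewer fragments.

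Box C/D hosts with both peaks were 3 of 12, SNHG29, SNHG30, and ZFAS1. SNHG29, host of SNORD49A, SNORD49B, and SNORD65, had 14 fragments in DMSO (chr17:16438375-16438656, 282 bp, fold 5.36, −log10 q 5.68, 251 bp upstream) and 7 in MS67 (chr17:16438426-16438618, 193 bp, fold 4.79, −log10 q 2.83, 245 bp upstream). SNHG30, host of SNORD7, was the weakest of the 19 by fragments, with 7 in DMSO (chr17:35567816-35568099, 284 bp, fold 4.29, −log10 q 2.74, 92 bp upstream) and 4 in MS67 (chr17:35568012-35568303, 292 bp, fold 3.96, −log10 q 1.99, 38 bp downstream). ZFAS1, host of 3 SNORD12 snoRNAs, had its promoter peak 898 bp upstream, in an intron of ZNFX1, with 14 fragments in DMSO (chr20:49277187-49277372, 186 bp, fold 4.69, −log10 q 4.73) and 10 in MS67 (chr20:49277125-49277296, 172 bp, fold 5.09, −log10 q 3.64, 967 bp upstream). A second, stronger DMSO peak lay 1551 bp upstream of ZFAS1, outside the promoter, with 18 fragments and a −log10 q of 8.80.

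GAS5, the growth arrest-specific host with snoRNAs of both boxes, had the most fragments of the 12 WDR5 promoter peaks in MS67. Its DMSO peak, the one printed above, was 245 bp wide with 17 fragments, a fold of 4.49, and a −log10 q of 5.17, 87 bp downstream of a start site. In MS67 the peak at chr1:173868713-173868903 (191 bp) had 11 fragments, a fold of 5.38, and a −log10 q of 4.19, 74 bp downstream.

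The scaRNA hosts SNHG21 and SNHG22 had peaks in 3 of the 4 lists. SNHG21, host of SCARNA15, had a WDR5 peak in DMSO with 12 fragments (chr15:82750212-82750783, 572 bp, fold 5.55, −log10 q 5.38, 66 bp upstream) and in MS67 with 7 (chr15:82750579-82750743, 165 bp, fold 4.82, −log10 q 2.86, 77 bp downstream). Its SS18-SSX peak in DMSO had 6 fragments (chr15:82750229-82750570, 342 bp, fold 4.19, −log10 q 2.11, 164 bp upstream) and lay inside the WDR5 peak of the same cells.

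SNHG22, host of SCARNA17 and a neighbour of ACAA2, a mitochondrial enzyme of fatty acid oxidation, had a WDR5 promoter peak in DMSO with 14 fragments (chr18:49813435-49813715, 281 bp, fold 3.30, −log10 q 2.62, 390 bp upstream) and in MS67 with 10 (chr18:49812904-49813124, 221 bp, fold 4.04, −log10 q 2.43, 951 bp upstream). These 2 peaks did not overlap, but the MS67 peak overlapped another DMSO peak, centred 1218 bp upstream with 16 fragments. Just outside the promoter, 236 bp downstream of a start site, MS67 had the strongest WDR5 summit at any host gene in that list, with 15 fragments, a fold of 5.88, and a −log10 q of 5.83. The SS18-SSX peak in DMSO had 7 fragments (chr18:49813700-49813856, 157 bp, fold 4.05, −log10 q 2.02, 187 bp upstream) and overlapped the WDR5 promoter peak. SNHG22 thus had WDR5 peaks on both sides of its start site in both treatments.

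SNHG18 and SNHG8 completed the SS18-SSX set. SNHG18, host of SNORD123 and divergent from the semaphorin gene SEMA5A, had the strongest SS18-SSX peak of the 4, with 14 fragments (95% interval 7.65 to 23.5), a fold of 5.28, and a −log10 q of 5.06 over 1014 bp at chr5:9544919-9545932, 744 bp upstream. Its WDR5 promoter peak in DMSO, at chr5:9545821-9546064 (244 bp), had 15 fragments, a fold of 4.88, and a −log10 q of 5.26, 227 bp upstream. A wider WDR5 peak centred 1166 bp upstream held 23 fragments with a −log10 q of 11.6, and only at that second place was there a WDR5 peak in MS67, with 5 fragments. SNHG8, host of SNORA24, had an SS18-SSX peak of 145 bp in its exon at chr4:118278761-118278905, with 8 fragments, a fold of 4.15, and a −log10 q of 2.29, 75 bp downstream, while its only WDR5 peak lay 1863 bp downstream.

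WDR5 and SS18-SSX promoter peaks occurred together in DMSO at 3 host genes, SNHG18, SNHG21, and SNHG22 (9.38%), beside 2.81% of the other lncRNA genes and 9.34% of the protein-coding genes. In all 3 another gene starts within 1 kb. SNHG6 had both proteins nearby, with the SS18-SSX peak (20 fragments, fold 5.28, −log10 q 6.82) centred 471 bp downstream of a start site. The SS18-SSX promoter peaks were weak within their list, with a median of 7.5 fragments against 16 over all SS18-SSX peaks in DMSO and −log10 q values near 2 except at SNHG18.

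The 7 genes with a WDR5 promoter peak in DMSO and none in MS67 were SNHG1, SNHG5, SNHG6, SNHG12, SNHG18, SNHG26, and EPB41L4A-AS1. Of the box C/D hosts among them, SNHG6 had a DMSO peak at chr8:66925322-66925798 (477 bp) with a fold of 5.08 and a −log10 q of 8.17, centred 15 bp upstream of a start site. SNHG26, host of SNORD93, had 17 fragments, a fold of 5.34, and a −log10 q of 6.52, 1 bp upstream. SNHG1, the host of SNORD22 and SNORD25 to SNORD31, had a peak at chr11:62856137-62856334 (198 bp) with 14 fragments, a fold of 4.59, and a −log10 q of 4.57, 283 bp upstream. SNHG5, host of SNORD50A and SNORD50B, had 9 fragments, a fold of 3.36, and a −log10 q of 1.88, 298 bp upstream.

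SNHG12 carries both H/ACA and C/D snoRNAs. It had a peak at chr1:28582048-28582489 (442 bp) with 13 fragments, a fold of 5.96, and a −log10 q of 6.21, 391 bp upstream of a start site inside the gene. EPB41L4A-AS1, host of SNORA13, had 8 fragments, a fold of 5.41, and a −log10 q of 4.35 at chr5:112160560-112160762 (203 bp), 132 bp downstream. The nearest WDR5 peak in MS67 was 258802 bp from EPB41L4A-AS1, 67193 bp from SNHG1, and 34931 bp from SNHG6.

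Of the 19 genes with a WDR5 promoter peak in DMSO, 12 (63.2%) also had one in MS67, against 44.2% of the other lncRNA genes with a DMSO peak and 49.9% of the protein-coding genes. By class, the shares among DMSO-positive genes were 3 of 8 for the box C/D hosts, 6 of 7 for the box H/ACA hosts, 2 of 2 for the scaRNA hosts, and 1 of 2 for the mixed hosts. No host gene had a WDR5 promoter peak in MS67 alone, whereas 385 of the 1481 other lncRNA genes and 1251 of the 5550 protein-coding genes with an MS67 peak did. These counts are small, and the peaks of both lists were called at different depths.

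The WDR5 MS67 library was the shallower. Its genome-wide coverage, taken from the lowest background of the list, was 0.168 fragments per base against 0.368 in DMSO, a ratio of 0.458, and its list held 14123 peaks against 35605. For SS18-SSX the coverage was 0.541 in DMSO and 0.737 in MS67, with 15141 and 1175 peaks. Depth was therefore lower under MS67 for WDR5 and higher for SS18-SSX, and summits were set side by side after division by the coverage of their own library. The values carry no spike-in scaling, so a change common to the whole genome would not show in them.

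At the 12 genes with both peaks, the coverage-scaled WDR5 summit in MS67 over that in DMSO ran from 0.848 at SNHG11 to 1.98 at SNHG31, with a median of 1.37. SNHG11 was the only one below 1, and the 95% interval for counting error included 1 at all 12, for example 0.30 to 2.13 at SNHG11, 0.598 to 3.19 at GAS5, and 0.755 to 5.14 at SNHG31. Summed over the 12 genes, 155 summit fragments in DMSO and 98 in MS67 gave a scaled ratio of 1.38 (1.06 to 1.79). That interval covers the counting error of fragments from 1 library for each treatment, so it is not a test of MS67 against DMSO. At SNHG22 and SNHG31, however, the DMSO and MS67 peaks did not overlap, so those ratios compare summits at different places. Over the 10 genes whose peaks overlapped, the ratios ran from 0.848 at SNHG11 to 1.96 at SNHG15 with a median of 1.31, and the sums of 130 and 78 fragments gave 1.31 (0.976 to 1.75), an interval that includes 1. The median over the other 1096 lncRNA genes with both peaks was 1.31, and over 4299 protein-coding genes also 1.31, so the host genes lay near the rest. Such genes were chosen by having passed the MS67 peak threshold, which weak MS67 summits would not. On the scale of fold over local background, the median ratio at the 12 genes was 1.01.

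**Figure D4:**
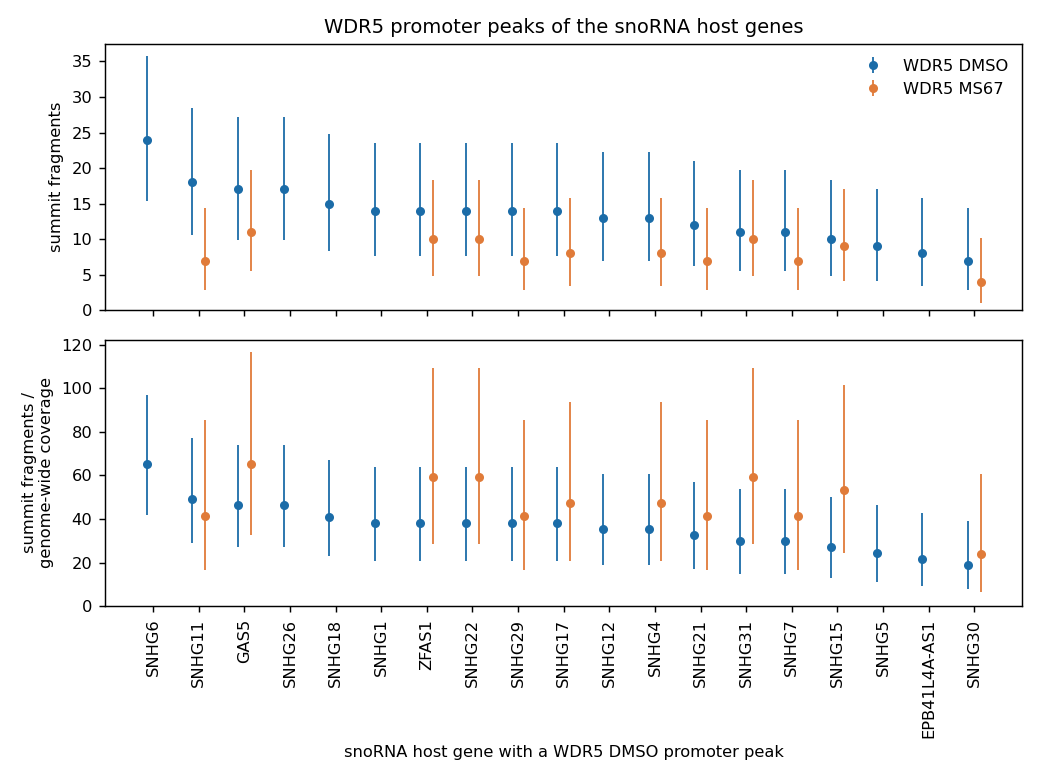
Summit fragments of the WDR5 promoter peak (upper panel) and the same divided by the library's genome-wide coverage (lower panel) at the 19 host genes with a DMSO promoter peak, in DMSO (blue) and MS67 (orange), with exact 95% Poisson intervals for counting error. All 12 orange points lie below their blue partner in the upper panel, and 11 of the 12 lie above it in the lower one, with overlapping intervals throughout. Genes without an orange point had no MS67 promoter peak.

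The DMSO values were also scaled to the depth of the MS67 library, by multiplying fragments and background by the ratio of coverages, and the p-value of the product was set beside the weakest peak in the MS67 list (−log10 p of 4.06). The products carry the counting error of the DMSO summits and rest on few fragments. The 7 genes were also picked for being listed in DMSO and not in MS67, which favours high DMSO values, so the products do not show whether depth accounts for the missing peaks. SNHG6 gave 11.0 fragments and a −log10 p of 6.34, SNHG26 gave 7.79 fragments and 5.46, and SNHG12 gave 5.96 fragments and 5.35. SNHG18 (4.74), EPB41L4A-AS1 (4.36, from 3.67 fragments), and SNHG1 (4.34) lay little above 4.06, and SNHG5 (2.72) lay below it. Among the 12 genes with both peaks, 7 had a product above 4.06, and SNHG4, SNHG15, SNHG22, SNHG30, and SNHG31 were listed in MS67 with a product below it. Of the 7 genes without an MS67 peak, 6 had one above it. The background for other lncRNA genes was 76.2% of those with both peaks and 60.9% of those with a DMSO peak alone. For protein-coding genes it was 77.8% and 63.6%. Host gene counts this small allow no statement of a difference. In DMSO the 7 genes had 8 to 24 summit fragments (median 14) and the 12 genes 7 to 18 (median 13.5), so the groups overlapped.

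Of the 6 genes with a WDR5 DMSO peak within 2 kb only, SNHG25 and SNHG28 had the most fragments. SNHG25 had 18 in a peak centred 1207 bp downstream of a start site with a −log10 q of 9.84. SNHG28 also had 18, in a peak of 1026 bp centred 161 bp downstream whose summit was 7 bp from the start site and whose −log10 q was 10.5. SNHG16 had 15 fragments 1007 bp upstream, just beyond the promoter edge, SNHG19 had 14, and SNHG8 and SNHG32 had 11 each. SNHG10 had no DMSO peak within 2 kb and an MS67 peak with 8 fragments 1154 bp upstream. The peaks of SNHG16 and SNHG28 thus lay close to the promoter's edges.

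The 6 host genes with no peak in any list within 2 kb were SNHG3, SNHG9, SNHG14, SNHG20, SNHG27, and DANCR. The nearest WDR5 DMSO peak was 7741 bp from a start site of SNHG9, 9007 bp from DANCR, 10064 bp from SNHG20, 11589 bp from SNHG3, 178929 bp from SNHG14, and 192443 bp from SNHG27. DANCR, host of SNORA26, nonetheless had 1 WDR5 peak within its body in DMSO and 2 in MS67. Over all host genes, 8 of 32 (25%) had WDR5 DMSO peaks centred in the gene outside any of its promoters, 11 peaks in all, of which 4 were in SNHG16, a gene of 113259 bp. The background was 18.9% of the other lncRNA genes and 45.4% of the protein-coding genes, whose median length was 27471 bp against 8588 bp for the host genes and 6272 bp for the other lncRNA genes. In MS67 there were 5 such peaks in 4 genes (12.5%; DANCR, SNHG16, SNHG21, and SNHG22), beside 8.93% of the other lncRNA genes and 24.5% of the protein-coding genes. For SS18-SSX in DMSO there were 3 in 2 genes (6.25%; SNHG16 and SNHG6), beside 7.52% and 15.6%. The host genes' shares were near those of the other lncRNA genes.

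Promoter sequence was examined in RefSeq's table of stretches from 250 bases before to 50 after the start (build GRCh38.p14), which matched 28 of the 32 host genes. SNHG6, SNHG9, SNHG15, and SNHG25 had no entry. A start at C followed by at least 4 pyrimidines occurred in 7 of the 28 (25%; SNHG4, SNHG5, SNHG12, SNHG18, SNHG19, SNHG32, and ZFAS1), in 4.07% of all 35116 promoters, in 3.21% of the other lncRNA promoters, and in 60% of 80 ribosomal protein gene promoters. GGGCGG occurred in 20 of the 28 (71.4%), in 45% of all promoters, in 25.4% of the other lncRNA promoters, and in 56.3% of protein-coding promoters. The shares for CCAAT (28.6%, against 34.6% of all promoters), CACGTG (7.14%, 7.26%), CCGGAAG (7.14%, 10.3%), GCCATCTT (3.57%, 2.89%), and TATAAA (14.3%, 11.5%) were close to those of all promoters. The host genes' promoters were thus rich in GGGCGG and in pyrimidine starts as a description of their sequence, which says nothing of the factors bound there.

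The genes for the proteins that act with snoRNAs were looked at in the same way. Of 8 core snoRNP protein genes, 2 had a WDR5 promoter peak in DMSO, DKC1 (dyskerin, the pseudouridine synthase) and GAR1. In MS67 4 of the 8 did, DKC1, NOP56, NOP58, and SNU13, and none had an SS18-SSX peak. Among 8 snoRNP assembly factors, 4 had a WDR5 DMSO peak, led by SHQ1, the dyskerin chaperone, with 17 fragments, and RUVBL2, NUFIP1, and PIH1D1 followed. RUVBL1 and RUVBL2 were the only assembly factors with an SS18-SSX DMSO peak. Among 8 nonsense-mediated decay factors, 3 had a WDR5 DMSO peak, SMG1 with 14 fragments, SMG5 with 12, and UPF3A with 7. The background for these lists of 8 genes is the 43% of all protein-coding genes with a WDR5 DMSO promoter peak. For WDR5 in MS67 it is 27.7%, and for SS18-SSX in DMSO 13.4%. Lists this short allow no statement of a difference. Apart from SHQ1, SMG1, and SMG5, these genes were named after their values were seen.

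The counts depended on the threshold. For its comparison of CUT&Tag with CUT&RUN peaks, the paper used a −log10 q above 3, with a fold above 6 for WDR5. All listed peaks were counted above, without these cut-offs. With peaks limited to a fold above 6 and a −log10 q above 3 for WDR5, the DMSO count fell to 2 host genes (SNHG11 and SNHG17, 6.25%), between 3.47% of the other lncRNA genes and 11.7% of the protein-coding genes, so that the host genes no longer exceeded the latter. The WDR5 MS67 count fell to 1 host gene (SNHG17, 3.13%), against 2.14% and 7.39%, so here too the host genes no longer exceeded the protein-coding genes. At a −log10 q above 5 the WDR5 MS67 count was 0, against 1.91% and 6.74%. Host gene counts this small did not keep the order seen with all peaks, and they allow no statement of a reversed one.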

How the data were processed

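The authors prepared CUT&RUN libraries from HSSY II cells, aligned reads to hg38 with Bowtie2, removed PCR duplicates with Picard, and called peaks with MACS2 in each library separately. The submitters' processing notes also name SAMtools 1.9, bedtools 2.28.0, and deepTools 3.3.0. MACS2 options and any control library are not given in the sources used here. For each peak the authors deposited a position, the summit's ratio to local background (fold), a −log10 p-value and a −log10 q-value, and a score derived from the q-value, which was not used.

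The fold enrichment and p-value of a peak together fix the whole number of fragments at its summit and the local background, which fitted 100% of peaks within 0.001 in −log10 p. The lowest background of a list was taken as genome-wide coverage. The step was checked on simulated peaks. The computation ran in Python 3.11.15 (scipy 1.17.1, numpy 2.4.6, pandas 2.3.3). Intervals are exact 95% Poisson intervals, or exact binomial ones for ratios, and cover counting error only. Distances run from the peak centre to the nearest start site of GENCODE 44.

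Genes and lists were chosen with earlier results of these data known. Full values are given for each host gene with a promoter peak in the WDR5 MS67 list or an SS18-SSX list and for the 5 other genes with the highest −log10 q in WDR5 DMSO. The peak sequences are those of the 5 host genes with the most DMSO summit fragments, without chromosome 8 and without SNHG18, whose peak lies in an annotated UTR. With 1 library per condition no test was possible. Spike-in signal was not analysed here.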

Additional observations from a re-analysis of the deposited data

How the results depend on the processing

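Of 45 alternative values, 28 stayed within 1.5 times the reported count or within the counting error, and 17 moved. Requiring a fold above 6 (WDR5) or 3 (SS18-SSX) and a −log10 q above 3 gave 2 genes for WDR5 in DMSO, 1 in MS67, 1 with both, 1 for SS18-SSX in DMSO, and 0 with both proteins. The host genes' shares were then below those of protein-coding genes in DMSO and MS67 for WDR5 (6.25% against 11.7%, 3.13% against 7.39%) and for SS18-SSX in DMSO (3.13% against 7.76%). The reported order for WDR5 was thus not kept, but so few host genes allow no statement of a reversed order. A −log10 q above 5 gave 9, 0, 0, 1, and 1 in the same order, and 28.1% of host genes then had a WDR5 DMSO peak, against 6.97% of other lncRNA genes and 23.6% of protein-coding genes. For WDR5 in MS67 that threshold left 0 host genes and 6.74% of protein-coding genes, again too few host genes for a statement of order. For SS18-SSX in DMSO the shares were 3.13% and 3.02%. Without the 19 genes that share a promoter, the counts among the 13 left were 9, 5, 5, 1, and 0, by construction from fewer genes. Counting peak centres within 2 kb raised the genes with both proteins from 3 to 5, and the WDR5 DMSO share to 78.1%, against 24.3% and 62.7%. The median MS67 to DMSO ratio was 1.01 on the fold scale, and the cause was not tested, and 1.31 over the 10 genes whose peaks overlapped. SS18-SSX in MS67 had 0 host genes under every alternative run. The shares of the comparison groups under these thresholds, the limit to overlapping peaks, and the p-value used for the expected depth were chosen after seeing the data. No paired analysis was possible because each condition has 1 library. Depth limits single genes most, since most summits rest on under 20 fragments.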
